A study of Oryctolagus cuniculus with 16 samples.

Results

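Genes of the contractile apparatus and of the actomyosin cytoskeleton were examined in the wall of the rabbit basilar artery (BA) and basilar terminus (BT). The genes were taken by symbol and comprised the myosin heavy chains, the myosin light chains and their kinases, the muscle and cytoplasmic actins, the actinins, tropomyosins, leiomodins, calponins, filamins and synaptopodins, together with transgelin, caldesmon, smoothelin, desmin and vimentin. Of 11925 gene symbols with a count in at least 1 library, 39 met this rule, and 6 further matching symbols had no count in any library. TAGLN, CNN1, ACTB, ACTG1, ACTN4, TPM4, CNN2, CNN3, FLNA and MYL12A had no row in the count table and were not analysed here.

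The tissue came from 4 female New Zealand white rabbits killed 24 h after surgery. Rabbits 3 and 4 had a sham operation, and rabbits 5 and 6 had both common carotid arteries ligated, a procedure that raises flow through the BA. From each rabbit BA and BT intima and media strips were cut separately with a laser from frozen sections, which gave 16 libraries in 8 groups of 2 rabbits. About 10 sections were pooled for each library, and the age of the animals was not given in the sources used here.

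Smooth muscle contracts when calcium and calmodulin activate myosin light chain kinase (MYLK), which phosphorylates the regulatory light chain of smooth muscle myosin so that its heavy chain (MYH11) can pull on thin filaments of ACTA2 and ACTG2 actin. Tropomyosins and caldesmon lie along the thin filament, leiomodin nucleates new filaments, and desmin and filamin C link the contractile array to the rest of the cell. In vascular smooth muscle cells (VSMCs) that leave the contractile state these genes are usually transcribed less, and cytoplasmic forms such as MYH9 and ACTN1 take a larger place.

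Expression is given as CPM, read counts scaled to a common library total, normalized by the trimmed mean of M-values (TMM) over the 16 libraries. Such values are not divided by transcript length, so levels are compared only within a gene. Counts on named genes ranged from 2154863 to 17686105 per library, the lowest being the BA media of ligated rabbit 5. The 39 genes together took 5.21% to 15.7% of the counts in the 8 intimal libraries and 14.3% to 19.7% in the 8 medial libraries, and ACTA2 alone took 1.18% to 7.19% and 6.09% to 10.1%, so smooth muscle genes were measured in the intimal strips too.

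By their known use the 39 genes fall into 13 smooth muscle, 9 cytoplasmic and 17 striated muscle members. All 13 smooth muscle and all 9 cytoplasmic members had counts in all 16 libraries. Of the 17 striated members 2, FLNC and ACTA1, had counts in all 16, and 6 never passed the filter on low values, a mean above 1 CPM in at least 1 group compared. FLNC, the filamin of muscle, was grouped with the striated members, so it does not enter the counts of the 13 smooth muscle members. ACTA2, ACTG2, ACTA1 and ACTC1 encode nearly identical proteins, so their split under unique mapping is uncertain.

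Summed levels of marker lists describe what else the strips held. The 11 endothelial markers summed to 1237 to 5943 CPM in the intima and 464 to 1667 CPM in the media, with the lowest intimal sums in both libraries of sham rabbit 3. The 10 leptomeningeal and fibroblast markers summed to 23896 to 41193 CPM in the sham media and 8506 to 11009 CPM in the ligated media, without overlap, and to 6268 to 21356 CPM against 1255 to 5734 CPM in the intima. The 2 blood markers reached 91924 and 129801 CPM in the BA and BT intima of sham rabbit 4, and the 7 brain markers stayed at 13.0 CPM or below in every library. Of the leptomeningeal and fibroblast markers, COL1A2 and COL3A1 stood at 3106 and 8354 CPM in the BT media of sham rabbit 3. The whole sum in that library was 23896 CPM. Which cells these collagen transcripts came from was not tested. In bulk tissue, fewer cells of a type and less RNA per cell cannot be told apart.

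**Figure D1:**
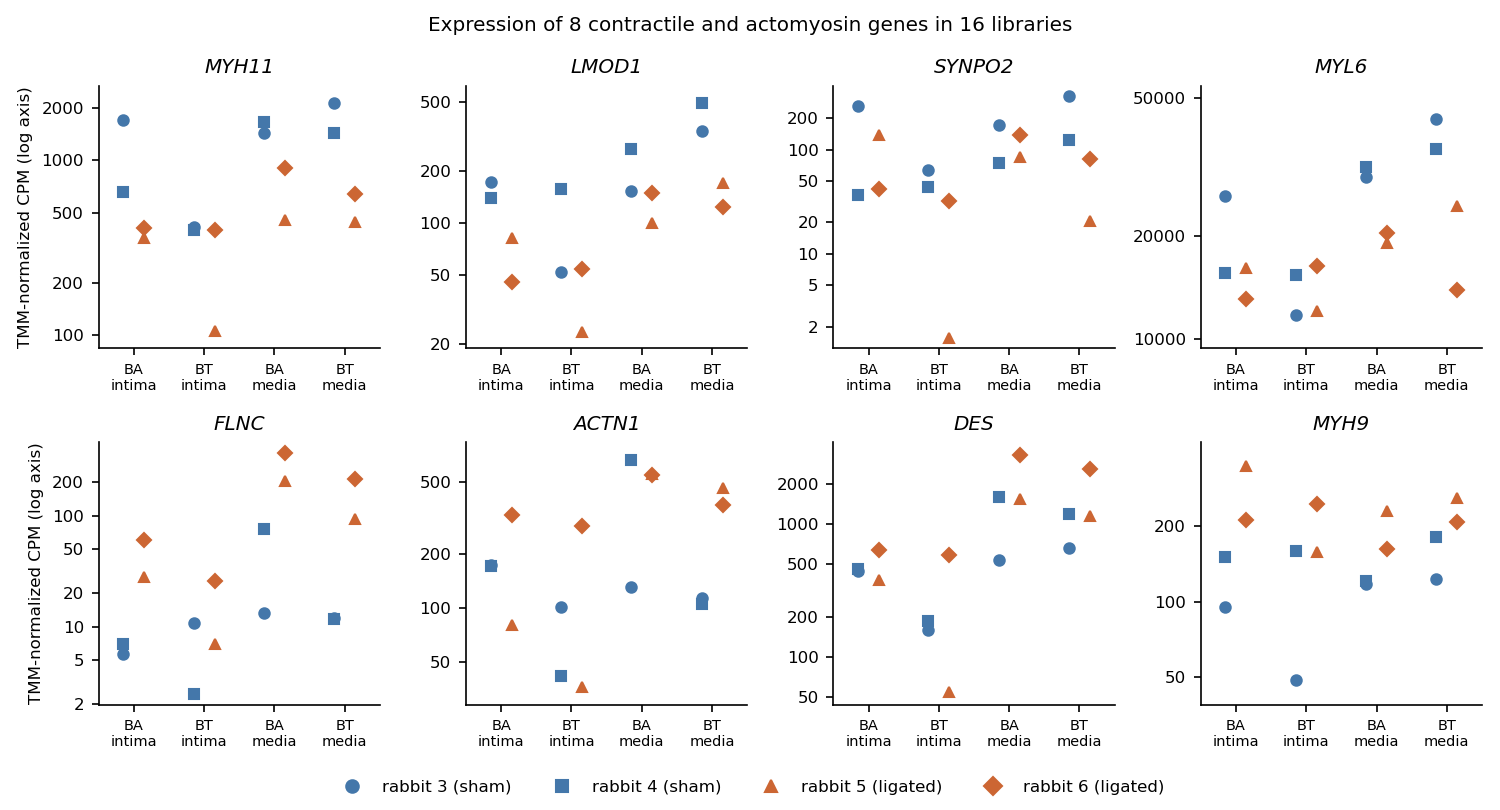
Expression of MYH11, LMOD1, SYNPO2, MYL6, FLNC, ACTN1, DES and MYH9 in each library, as TMM-normalized CPM on log axes, by tissue, with 1 symbol per rabbit (blue, sham; orange, ligated). In the BT media MYH11 lay at 1438 and 2127 CPM in the sham libraries and at 445 and 641 CPM in the ligated libraries, whereas FLNC lay at 11.6 and 11.9 CPM against 93.2 and 214 CPM.

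The comparison of ligated with sham rabbits asked which of these genes respond to raised flow, and it was made separately in the 4 tissues. In the BT media MYH11 and LMOD1 fell, and FLNC and ACTN1 rose. These were 4 of the 29 members tested there, beside 2.35% of all 8783 genes tested (206 genes, 49.5% of them higher, or 64.9% of 194 with scaling by library size alone). The median log2 fold change was -0.54 over the 29 members and 0.03 over all genes tested. Under the same test none of the members tested passed in the BA media (28 members; 0.807% of 8800 genes, 53.5% of the calls higher, or 38.4% with library size alone), in the BA intima (30 members; 0% of 8974 genes) or in the BT intima (31 members; 0% of 9273 genes). At an unadjusted p below 0.05 the edgeR counts were 9 members in the BA media (13.6% of all genes), 12 in the BT media (16%), 6 in the BA intima (5.95%) and 2 in the intima of the BT (11.6%). DESeq2 called 3, 8, 2 and 2 members in that order, and the shares of all genes given here are those of edgeR and not of DESeq2.

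Among the myosin heavy chains, MYH11 encodes the smooth muscle form. In the BT media it was measured at 2127 and 1438 CPM in sham rabbits 3 and 4 and at 445 and 641 CPM in ligated rabbits 5 and 6. It fell by 1.70 on the log2 scale (SE 0.33, edgeR quasi-likelihood test with Benjamini-Hochberg adjustment, q = 0.0221), a 3.26-fold difference. The groups did not overlap.

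In the BA media MYH11 stood at 1424 and 1660 CPM in sham rabbits and at 454 and 909 CPM in ligated rabbits. In the BA intima the values were 1707 and 660 against 362 and 409 CPM, and in the BT intima 418 and 400 against 106 and 398 CPM. All 3 tissues thus had both ligated libraries below both sham libraries, although by a narrow gap in the BT intima. The log2 fold changes were -1.16 (SE 0.36, edgeR q = 0.218), -1.63 (SE 0.56, q = 0.752) and -0.71 (SE 0.63, q = 0.69), none past the threshold.

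MYH9 and MYH10 encode the nonmuscle heavy chains of the cell cortex and of stress fibres. MYH9 stood at 118 and 121 CPM in the sham BA media and at 230 and 163 CPM in the ligated BA media. Its log2 fold changes were 0.73 (SE 0.36) in the BA media, 0.62 (SE 0.35) in the BT media, 1.19 (SE 0.49) in the BA intima and 0.97 (SE 0.63) in the BT intima, with edgeR q-values from 0.42 to 0.807. MYH10 lay between 8.2 and 74.8 CPM in all 16 libraries, and its groups overlapped in the 4 tissues.

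A ratio of counts taken within a library does not depend on how libraries are scaled. The smooth muscle to nonmuscle ratio, MYH11 per MYH9, was 12.1 and 13.7 in the sham BA media against 1.97 and 5.6 in the ligated BA media. At the BT the medial ratio was 17.2 and 7.89 against 1.72 and 3.08. The intimal ratios were 17.8 and 4.37 against 1.04 and 1.93 in the BA, and 8.62 and 2.51 against 0.665 and 1.61 in the BT. Within each tissue the ligated libraries lay below the sham libraries. The intimal ratio was highest in sham rabbit 3, whose endothelial marker sums were the lowest, at 1889 CPM in the BA and 1237 CPM at the BT. Sham rabbit 4 had the highest sums, at 5943 and 5545 CPM. The part of the mix of cells in the intimal ratios was not tested. These ratios were chosen after their values were seen and carry no test, and with 2 rabbits against 2 a two-sided exact permutation test cannot give a p below 0.333.

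The light chains and their kinase set the activity of the myosin head. MYL6, the smooth muscle essential light chain, stood at 29576 and 31522 CPM in the sham BA media against 19016 and 20328 CPM after ligation. MYL6 in the BT media stood at 43357 and 35570 CPM against 24298 and 13931 CPM. Neither difference passed the threshold (log2 -0.62, SE 0.18, edgeR q = 0.187, and -1.04, SE 0.32, q = 0.129), although the groups did not overlap in either.

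MYL9, the regulatory light chain of smooth muscle, was at 98.0 and 575 CPM in the sham BA media and at 147 and 130 CPM after ligation, so that sham rabbit 4 alone lay above the ligated pair. Without that rabbit the log2 fold change of MYL9 turned from -1.26 to 0.50. MYL9 in the BT media stood at 129 and 170 CPM against 107 and 114 CPM (log2 -0.43, SE 0.36, edgeR q = 0.598). MYLK itself stood at 4594 and 6215 CPM against 3694 and 3388 CPM there, a log2 fold change of -0.60 (SE 0.29, q = 0.341). MYL12B, a nonmuscle regulatory light chain, had log2 fold changes from 0.13 to 0.65 in the 4 tissues, and MYL6B, an essential chain of nonmuscle myosin, from -2.67 to -0.50. MYL6B was low, at 43.6 and 35.5 CPM in the sham BA media and 12.7 and 11.5 CPM after ligation, and its groups overlapped only in the BA intima.

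The actins form the thin filament. ACTA2, the main smooth muscle actin, was at 81631 and 70959 CPM in the sham BA media and at 98848 and 113194 CPM after ligation (log2 0.49, SE 0.17, edgeR q = 0.252). ACTA2 in the BT media was at 97080 and 67915 CPM against 71063 and 63200 CPM (log2 -0.29, SE 0.29, q = 0.67). ACTG2, the second smooth muscle actin, stood at 14770 and 16511 against 25596 and 23641 CPM in the BA media (log2 0.67, SE 0.19, q = 0.168), and its groups overlapped in the BT media.

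The ratio of ACTA2 to MYH11 counts was compared between libraries only, since it is not corrected for transcript length. It lay between 42.0 and 57.3 in the 8 sham libraries of both layers and both locations, with a median of 46.3. In the 8 ligated libraries it lay between 97.2 and 218, with a median of 111. The ranges did not overlap in either layer (sham 42.0 to 50.5 against ligated 97.2 to 114 in the intima, and 42.7 to 57.3 against 98.6 to 218 in the media). The 16 libraries came from 4 rabbits, and the ratio was chosen after its values were seen, so it stands as a description.

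**Figure D2:**
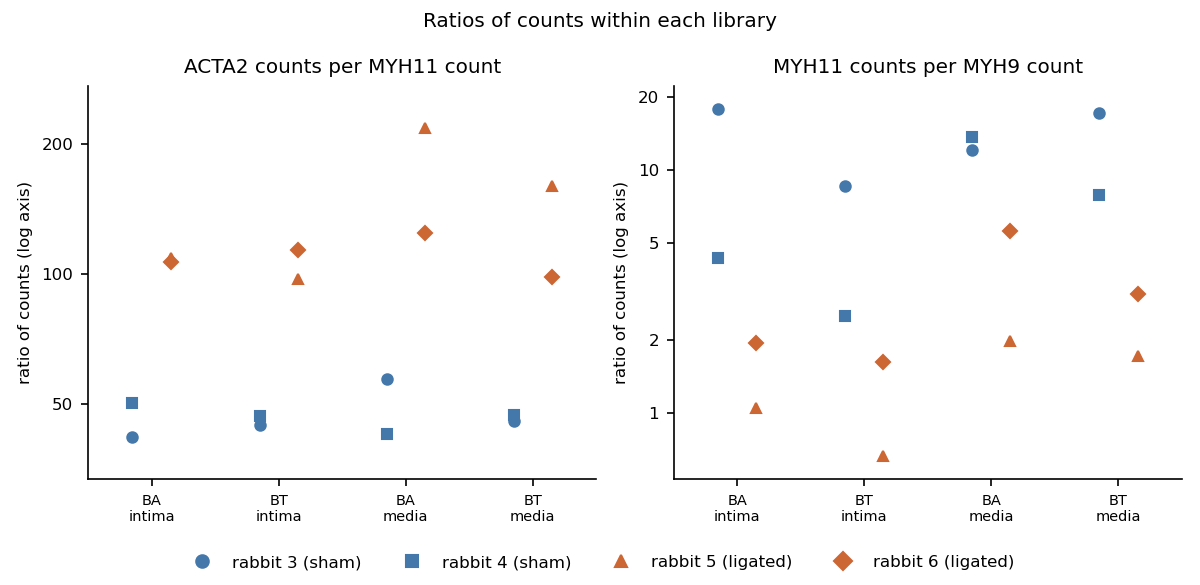
Counts of ACTA2 per count of MYH11 (left) and of MYH11 per count of MYH9 (right) in each of the 16 libraries, on log axes, by tissue, with 1 symbol per rabbit. The ACTA2 to MYH11 ratio separates the 8 sham libraries (42.0 to 57.3) from the 8 ligated libraries (97.2 to 218), and the MYH11 to MYH9 ratio is lower in the ligated pair within each tissue.

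Thin filament proteins stabilize the actin filament or govern its access to myosin. LMOD1, a leiomodin that nucleates actin filaments in smooth muscle, stood at 340 and 494 CPM in the sham BT media and at 170 and 123 CPM after ligation. LMOD1 fell by 1.51 on the log2 scale (SE 0.34, edgeR q = 0.0438), a 2.84-fold difference. In the BA media its ligated libraries, at 99.7 and 149 CPM, lay just below the sham libraries at 153 and 266 CPM (log2 -0.73, SE 0.41, q = 0.479).

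TPM2, the beta-tropomyosin, stood at 9223 and 9269 CPM in the sham BT media and at 5023 and 4535 CPM in the ligated BT media, without overlap but not past the threshold (log2 -0.94, SE 0.28, edgeR q = 0.108). TPM1 and CALD1, a tropomyosin and caldesmon, were also lower without overlap there, at log2 -0.69 (SE 0.28) and -0.53 (SE 0.28). In the BA media CALD1 lay on the other side, at 5985 and 4814 CPM in sham and 6447 and 7215 CPM in ligated rabbits. SMTN, smoothelin, stood at 384 and 406 against 539 and 527 CPM in the BT media (log2 0.44, SE 0.29, q = 0.489) and at 448 and 774 against 305 and 416 CPM in the BA media (log2 -0.74, SE 0.36, q = 0.415).

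Among the cytoplasmic members, TPM3, a low-abundance tropomyosin, stood at 2.54 and 4.91 CPM in the sham BA media against 10.5 and 13.1 CPM after ligation, and at 11.4 and 9.12 against 24.7 and 27.4 CPM in the BA intima. TPM3 was the single one of the 26 members tested in all 4 tissues that lay above both sham libraries in both ligated libraries of every tissue, while ACTN2 and MYH11 were the 2 that lay below. In a single tissue 35.5% to 48.5% of all genes tested were separated. How many of all genes were separated in every tissue was not counted, so these counts have no background. The log2 fold changes of TPM3, from 0.69 to 1.69, did not pass in any tissue (edgeR q from 0.516 to 0.861). SYNPO, a synaptopodin of nonmuscle cells, stayed at 12.8 CPM or below in all libraries.

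Actin crosslinkers bundle filaments and anchor them at dense bodies and adhesions. FLNC, the filamin of muscle, had the largest fold of the members that passed, at 11.9 and 11.6 CPM in the sham BT media and at 93.2 and 214 CPM in the ligated BT media. FLNC rose by 3.72 on the log2 scale (SE 0.52, edgeR q = 0.00402), a 13.2-fold difference. In the BA media it stood at 13.4 and 75.7 against 205 and 366 CPM (log2 2.71, SE 0.74, q = 0.157), and in the BA intima at 5.64 and 6.95 against 27.8 and 60.4 CPM (log2 2.81, SE 0.75, q = 0.655). Its groups overlapped only in the BT intima, at 10.8 and 2.49 against 7.0 and 26.0 CPM.

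ACTN1, the nonmuscle alpha-actinin, stood at 114 and 106 CPM in the sham BT media and at 462 and 372 CPM in the ligated BT media. ACTN1 rose by 1.93 on the log2 scale (SE 0.32, edgeR q = 0.0102), a 3.81-fold difference. In the BA media sham rabbit 4, at 667 CPM, lay above both ligated libraries (558 and 550 CPM) and sham rabbit 3, at 132 CPM, below them. SYNPO2, a synaptopodin of smooth muscle dense bodies, stood at 326 and 124 CPM in the sham BT media and at 20.9 and 81.7 CPM in the ligated BT media, a log2 fold change of -2.10 (SE 0.60, q = 0.101) that did not pass. The span of SYNPO2 overlaps that of a neighbouring gene model in the RefSeq annotation table. Since the kit does not mark strand, reads from sequence shared by 2 genes cannot be told apart. Whether the exons overlap was not examined.

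ACTN2, the alpha-actinin of the striated muscle Z-disc, was low throughout and lay lower in both ligated libraries of each tissue. It stood at 46.9 and 70.2 CPM in the sham BA media and at 3.69 and 9.44 CPM after ligation (log2 -3.09, SE 0.69, edgeR q = 0.0894). In the BT intima the sham libraries held 84 and 33 counts and the ligated libraries none, so that ligated expression was at least 20.8-fold lower with 3 counts per library as the limit that a count of 0 allows. The 10 other striated muscle markers summed to 15.4 to 42.8 CPM in the sham intima and 2.02 to 7.36 CPM in the ligated intima, without overlap, and to 26.5 to 80.3 CPM in the sham media and 15.6 to 51.9 CPM in the ligated media, where the groups overlapped. Their part in the ACTN2 difference was not tested.

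Among the remaining striated members, MYLK3, the cardiac light chain kinase, had 1 and 0 counts in the sham BT media and 41 and 84 counts in the ligated BT media (edgeR q = 0.0941). ACTA1, skeletal actin, lay between 6.57 and 189 CPM in all libraries and passed in no tissue. ACTC1, MYL2, MYL3 and MYH13 reached at most 20.8 CPM, and no direction is given for them. MYLK4, a kinase of striated muscle, had 15 and 12 counts in the sham BT intima and none in the ligated pair, at least 5.47-fold lower at the same limit. The span of MYLK4 overlaps that of the WRNIP1 gene model in the RefSeq annotation table, and as for SYNPO2 an overlap of exons was not examined.

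Of the intermediate filaments, desmin (DES) marks muscle and vimentin (VIM) marks mesenchymal and endothelial cells as well. DES stood at 534 and 1609 CPM in the sham BA media and at 1544 and 3305 CPM after ligation, and at 656 and 1180 against 1158 and 2609 CPM in the BT media. The pairs overlapped in both, with log2 fold changes of 1.20 (SE 0.53, edgeR q = 0.368) and 1.05 (SE 0.41, q = 0.229). Set against MYH11 within a library, DES gave 0.309 to 0.969 in the 4 sham medial libraries and 2.6 to 4.07 in the 4 ligated medial libraries, without overlap. In the intima the ranges overlapped, at 0.26 to 0.688 in the 4 sham and 0.516 to 1.56 in the 4 ligated libraries. Within the BA intima and within the BT intima the ligated pair lay above the sham pair. VIM stood at 18109 and 27171 against 13733 and 14125 CPM in the BT media (log2 -0.69, SE 0.30, q = 0.276) and at 14260 and 19795 against 15414 and 20067 CPM in the BA media.

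**Figure D3:**
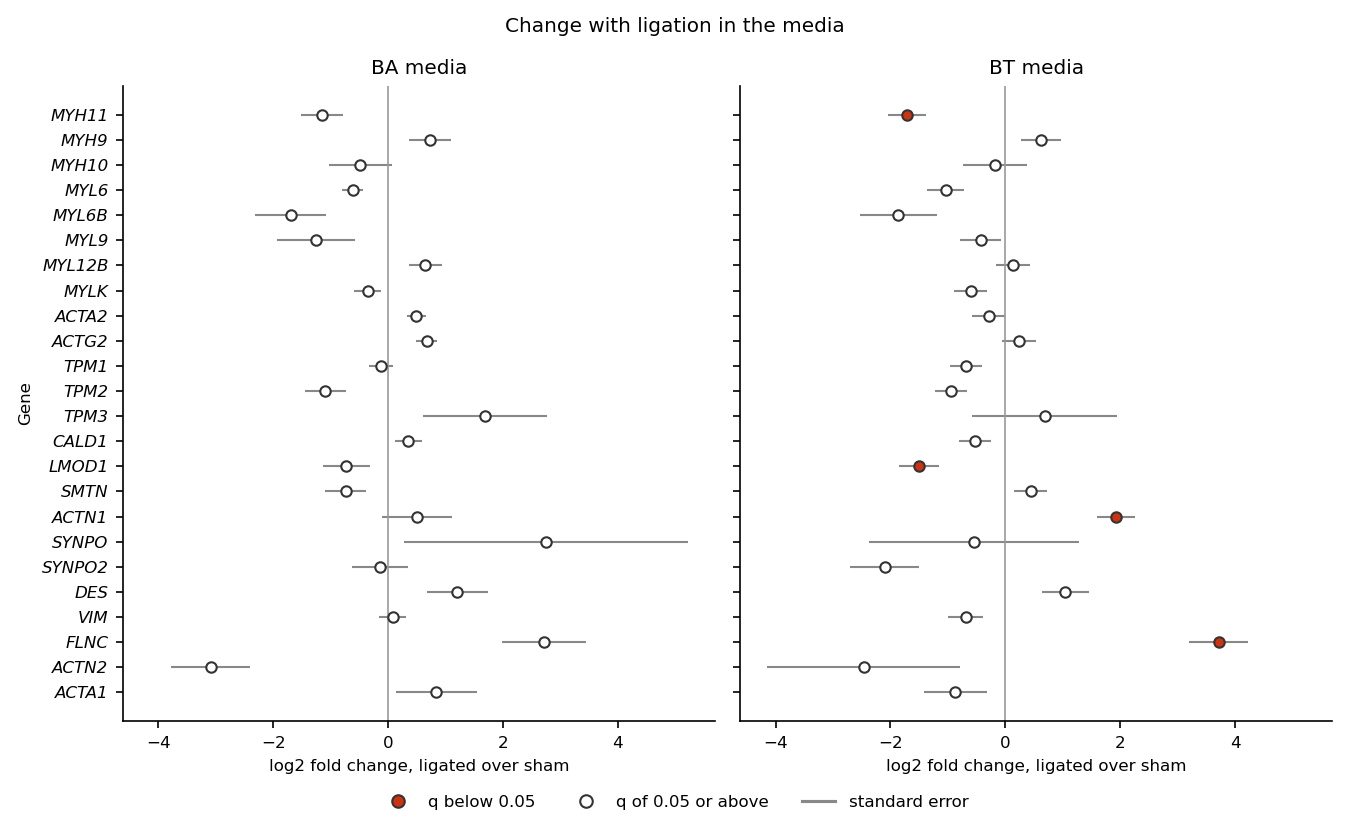
Log2 fold change of ligated over sham for 24 members in the BA media (left) and the BT media (right), with bars for the standard error and red points for q below 0.05. MYH11 and LMOD1 lie to the left and ACTN1 and FLNC to the right of 0 in red in the BT media, and no point is red in the BA media.

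Counting groups that did not overlap, 22 of the 29 members tested in the BT media were separated (7 higher and 15 lower after ligation), beside 48.5% of all genes tested. The counts were 17 of 28 in the BA media (9 higher, 8 lower; 47.1% of all genes), 13 of 30 in the BA intima (4 higher, 9 lower; 35.5%) and 11 of 31 in the BT intima (4 higher, 7 lower; 46%). The median log2 fold changes of the members were -0.02, -0.40 and 0.33 in these 3 tissues, against -0.15, -0.10 and -0.13 over all genes. Of the 13 smooth muscle members, 10 had a negative fold change in the BT media, 9 in the BA media, 7 in the BT intima and 10 in the BA intima.

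The BT media calls depended on the rabbits that entered. Without ligated rabbit 5 only FLNC passed, with MYH11 at q = 0.151, ACTN1 at 0.0624 and LMOD1 at 0.0938. Without ligated rabbit 6 a single member passed, and it was SYNPO2 (edgeR q = 0.0432), while these 4 had q from 0.0531 to 0.36. Without sham rabbit 4 the test called 7 members, these 4 with DES, MYL6 and SYNPO2, and DESeq2 called these 4 with MYL6, MYLK3, SYNPO2 and TPM2. LMOD1 also missed the threshold with scaling by library size alone (q = 0.0634). In a single fit over all 16 libraries none passed (q from 0.133 to 0.399 for the 4), and their fold changes kept their sign under each alternative tried. With 2 rabbits a group, the p-values measure the spread between these few animals.

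An interaction term, fitted with rabbit as a block, compared the response to ligation at the BT with that in the BA. In the media SYNPO2 and ACTA2 passed, 2 of 30 members tested, both with the lower change at the BT, beside 0.502% of 9368 genes and 0.288% in that direction (47 genes, 42.6% of them with the higher change at the BT, or 71.1% of 45 with library size alone). For SYNPO2 the change at the BT lay below that at the BA by 2.18 log2 units (SE 0.50, edgeR q = 0.0394). Its BA media libraries stood at 173 and 75.1 CPM in sham and 84.4 and 138 CPM in ligated rabbits and overlapped. For ACTA2 the difference between locations was -0.76 log2 units (SE 0.18, q = 0.0496), a 1.70-fold smaller ligated to sham ratio at the BT.

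Both calls were near the threshold. Scaling by library size alone gave -1.89 (q = 0.123) for SYNPO2 and -0.48 (q = 0.289) for ACTA2. Without rabbit 5 the SYNPO2 difference was -1.59 (q = 0.242), and for ACTA2 it was -0.61 (q = 0.352) without rabbit 3 and -0.57 (q = 0.271) without rabbit 6. DESeq2 kept SYNPO2 (q = 0.00752) and not ACTA2 (q = 0.104), and without the rabbit block neither passed (q = 0.751 and 0.734).

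The edgeR test gave 7 of the 30 members an unadjusted p below 0.05, beside 9.07% of all genes. CALD1 (-0.90, SE 0.23, edgeR q = 0.067), VIM (-0.75, SE 0.21, q = 0.107), TPM1 and ACTA1 had the lower change at the BT, and SMTN (1.14, SE 0.35, q = 0.167) had the higher. The median over the 30 members was -0.43, against 0.12 over all genes. In the intima no member of 31 passed (0% of 9641 genes), with 1 member at an unadjusted p below 0.05 (3.44% of all genes) and 0 called by DESeq2.

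**Figure D4:**
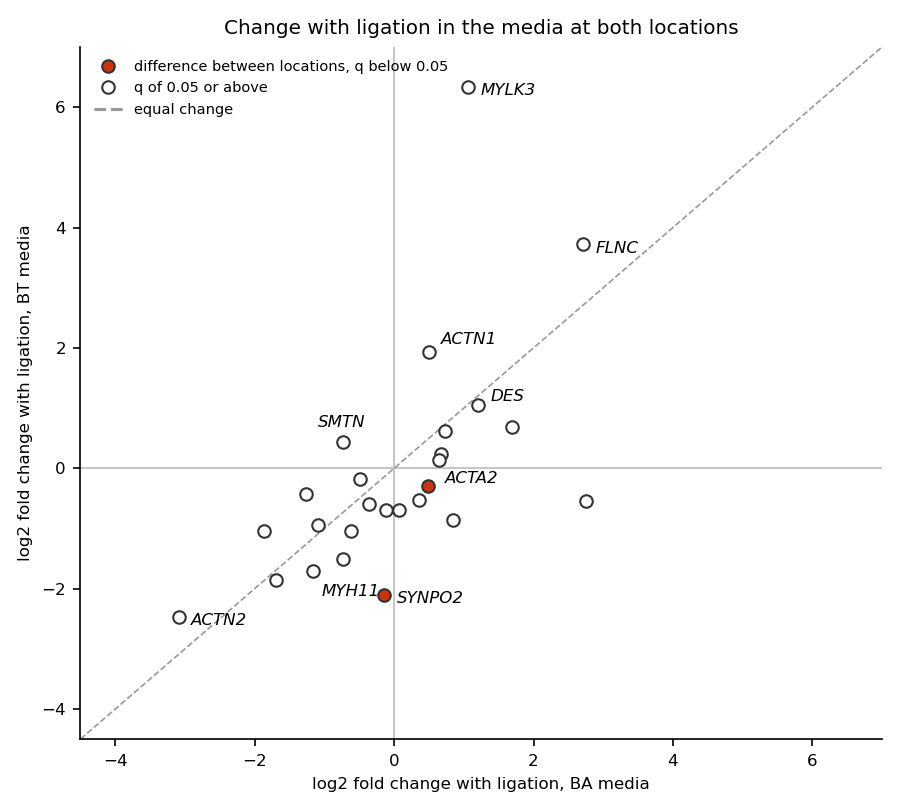
Log2 fold change with ligation in the BA media (horizontal) and in the BT media (vertical) for 26 members tested in both, with a dashed line of equal change and red points where the difference between locations had q below 0.05. SYNPO2 and ACTA2 lie below the line in red, and FLNC and ACTN1 lie above it without passing the test of the difference. The same 4 rabbits gave both axes.

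The comparison of the layers within each rabbit measured how far the intimal strip held the same genes as the media. All 13 smooth muscle members had negative intima over media fold changes at both locations, under each of the 3 scalings tried. At the BT, DES, LMOD1, MYLK, MYH11 and SYNPO2 were lower in the intima, 5 of the 33 members tested beside 2.1% of 9624 genes and 0.852% called lower (202 genes, 59.4% of them higher in the intima, or 80.8% of 193 with library size alone). In the BA, FLNC and ACTG2 were lower, 2 of 31 beside 0.62% of 9514 genes and 0.137% called lower. At an unadjusted p below 0.05 the edgeR counts were 19 members at the BT (13.8% of all genes) and 14 in the BA (11.8%).

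DES differed most among those that passed at the BT, where the intima held 4.70% to 24.1% of the medial level in the 4 rabbits, and its log2 fold change was -2.79 (SE 0.41, edgeR q = 0.0211). LMOD1 gave 13.9% to 43.9% of the medial level (log2 -2.10, SE 0.34, q = 0.0253), and MYLK gave 18.2% to 50.2% (log2 -1.79, SE 0.29, q = 0.0261). MYH11 gave 19.6% to 62.1% (log2 -1.74, SE 0.31, q = 0.0318), and SYNPO2 gave 7.45% to 39.7% (log2 -2.16, SE 0.42, q = 0.0432). For these 5 genes the intima lay below the media in all 4 rabbits. ACTG2 and CALD1 came next to the threshold there, at log2 -2.31 (SE 0.48, q = 0.0512) and -1.35 (SE 0.28, q = 0.0525).

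In the BA the intima held 9.18% to 42.1% of the medial FLNC level (log2 -2.56, SE 0.38, edgeR q = 0.0246) and 29.4% to 64.1% of the ACTG2 level (log2 -1.37, SE 0.24, q = 0.0469). MYH11 ranged from 39.8% to 120% of its medial level in the BA, highest in rabbit 3, whose BA intima held 1707 CPM against 1424 CPM in the media. ACTA2 stood at 38.4% to 87.7% in the BA and 14.4% to 71.6% at the BT. TPM3, a cytoplasmic member, lay higher in the intima in all 4 rabbits at both locations, at 186% to 450% of its medial level in the BA and 316% to 477% at the BT (log2 1.88, SE 0.57, q = 0.156 at the BT).

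**Figure D5:**
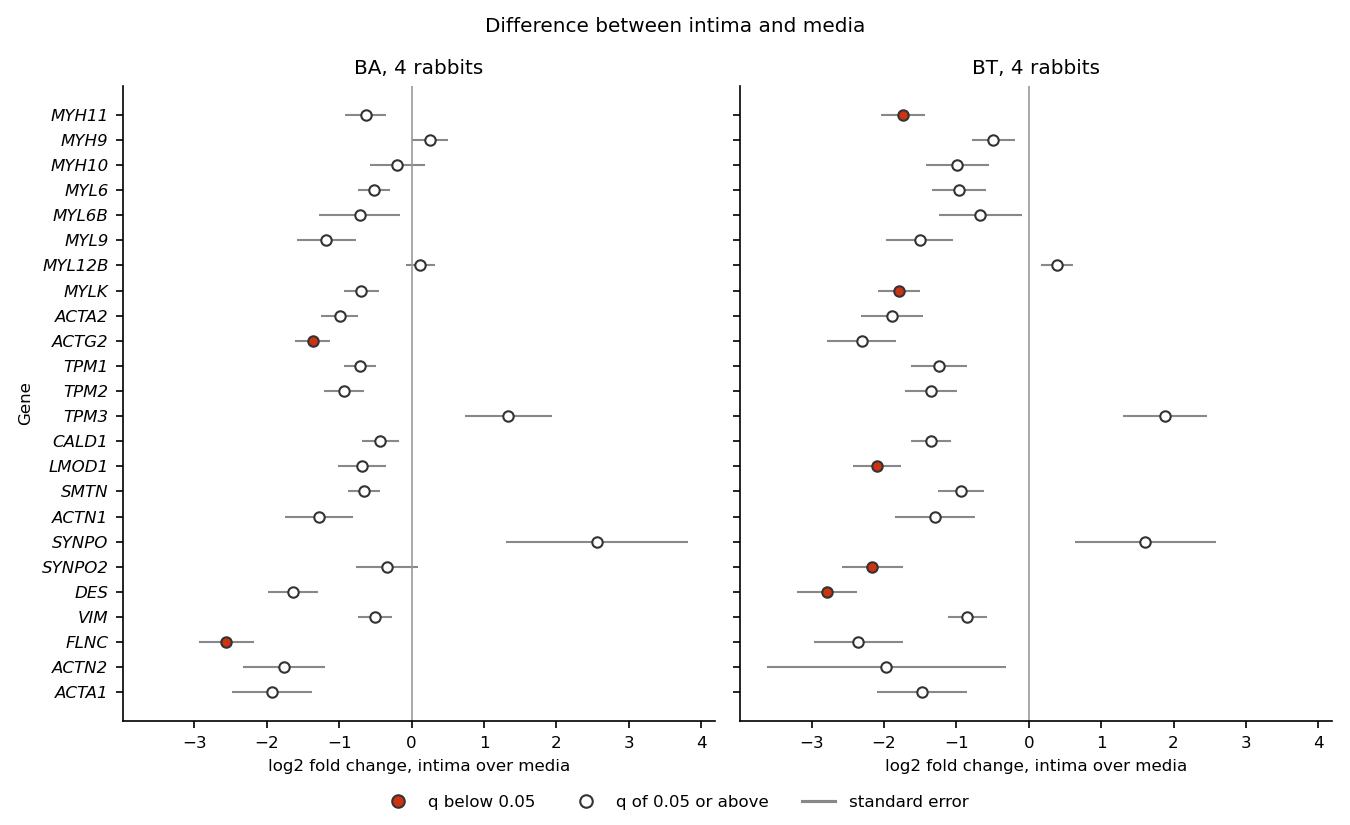
Log2 fold change of intima over media for 24 members in the BA (left) and at the BT (right), fitted over 4 rabbits with rabbit as a block, with bars for the standard error and red points for q below 0.05. All 13 smooth muscle members lie left of 0 in both panels, and TPM3, SYNPO and MYL12B lie right of it.

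The layer calls also depended on single rabbits, and no share of all genes stands beside the counts of fits without a rabbit. In the BA without rabbit 4, 5 or 6 none of the members passed, and without rabbit 3 the count was 5. Without the rabbit block none passed at either location. At the BT none passed without rabbit 4 or without rabbit 6, and 1, DES, passed without rabbit 5 (edgeR q = 0.0329). The median over the members tested was -0.69 in the BA and -1.29 at the BT, against 0.05 and 0.08 over all genes. Members lower in the intima in all 4 rabbits numbered 11 of 31 in the BA and 17 of 33 at the BT, beside 9.99% and 11.4% of all genes tested. Of the 11 endothelial markers, 11 had a positive intima over media fold change in the BA (median log2 3.51) and 9 at the BT (median 2.85). Of these, 2 passed in the BA and 4 at the BT, beside 0.62% and 2.1% of all genes tested. All 10 leptomeningeal and fibroblast markers had negative fold changes in the BA (median -2.69), where none passed. At the BT 8 of them were negative (median -2.09), and 2 passed as lower. Of the 6 pericyte markers, 4 had negative fold changes in the BA and 5 at the BT (median -1.73 at the BT), and 1 and 3 passed as lower. Both blood markers were higher in the intima at both locations and passed at the BT only. The part of these cells in the layer differences was not tested.

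Between the BT and the BA within a layer no member passed in the intima (31 tested; 0.0104% of 9641 genes) or in the media (30 tested; 0.032% of 9368 genes). At an unadjusted p below 0.05 the edgeR test gave 7 members (3.65% of all genes) and 6 members (5.27%), and DESeq2 called 0 and 1. In the intima all 13 smooth muscle members had negative BT over BA fold changes under the 3 scalings, with a median of -0.84, and MYH11 was lower at the BT in all 4 rabbits (log2 -1.15, SE 0.35, edgeR q = 1). In the media FLNC was lower at the BT in all 4 rabbits, at 11.9, 11.6, 93.2 and 214 CPM in rabbits 3 to 6 against 13.4, 75.7, 205 and 366 CPM in the BA (log2 -1.20, SE 0.34, q = 0.403).

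Whether the response to ligation differed between media and intima was tested in the same way. No member passed in the BA (31 tested; 0% of 9514 genes) or at the BT (33 tested; 0% of 9624 genes), with 0 and 2 members at an unadjusted p below 0.05 (2.44% and 4.84% of all genes) and 0 and 1 called by DESeq2. The 2 at the BT were TPM1, whose intimal level was 4479 and 6246 CPM in sham and 9242 and 11036 CPM in ligated rabbits, and FLNC. TPM1 thus lay higher in the ligated intima and lower in the ligated media of the BT, with a media minus intima difference of -1.61 (SE 0.53, edgeR q = 0.966).

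Genes that regulate this apparatus were taken from 2 further lists. Of the serum response factor and myocardin axis, which switches on contractile genes, 11 genes were in the table. In the BT media 1 of the 10 tested passed, beside 2.35% of all 8783 genes tested. The median log2 fold change of the 10 was -0.04 beside 0.03 over all genes. CSRP2, a LIM protein of smooth muscle, was at 13984 and 9374 CPM in sham and at 3618 and 3411 CPM in ligated rabbits there, and fell by 1.72 on the log2 scale (SE 0.30, edgeR q = 0.0133). MYOCD, the myocardin coactivator, stood at 125 and 97.9 against 58.0 and 47.0 CPM there. Its groups did not overlap, as for 48.5% of all genes tested, and it did not pass. In the BA media its groups overlapped, at 76.5 and 92.3 against 98.1 and 89.4 CPM. Of the 10 tested in the BT media, 5 had a positive and 5 a negative fold change. FHL2 lay higher without overlap at both locations, at 88.9 and 24.8 against 176 and 203 CPM in the BT media and 100 and 118 against 224 and 193 CPM in the BA media.

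Of 29 genes of actin turnover and anchoring, 3 rose in the BT media and 1 rose in the BA media, with medians of 0.08 and 0.06, beside 2.35% and 0.807% of all genes called in either direction and medians over all genes of 0.03 and -0.15. ARPC2, a subunit of the Arp2/3 complex that branches actin filaments, stood at 497 and 450 against 1239 and 1489 CPM in the BT media (log2 1.54, SE 0.30, edgeR q = 0.0215) and at 548 and 326 against 1724 and 1964 CPM in the BA media (log2 2.09, SE 0.34, q = 0.0399). ARPC1B, a second subunit, stood at 38.9 and 34.4 against 140 and 200 CPM in the BT media (log2 2.23, SE 0.40, q = 0.0145). CAPG, which caps actin filaments, stood at 2.90 and 3.55 against 43.6 and 36.9 CPM in the BT media (log2 3.63, SE 0.73, edgeR q = 0.0258). In the BA media, unlike ARPC2, both genes had overlapping groups. ARPC1B stood there at 112 and 75.1 CPM in sham and 108 and 93.6 CPM in ligated rabbits. CAPG stood there at 22.3 and 30.9 against 17.9 and 29.9 CPM. No gene of these lists passed in the intima of either location after ligation. Between the layers at the BT, FHL1, a LIM protein, was lower in the intima (log2 -1.62, SE 0.27, edgeR q = 0.0279) and ARPC1B was higher (log2 1.73, q = 0.0204).

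Some marker sums of other cell types also differed. In the BT media the leptomeningeal and fibroblast sum did not overlap between the groups, nor did the macrophage and leukocyte sum. The endothelial and pericyte sums overlapped there. Of the 6 pericyte markers, 1 passed as higher and 1 as lower, beside 2.35% of all genes tested. In the ligated BT media, where MYH11 and LMOD1 were lower, the leptomeningeal and fibroblast sum was 9255 and 11009 CPM against 23896 and 30078 CPM in sham, the endothelial sum 1200 and 916 against 593 and 1667 CPM, and the pericyte sum 821 and 878 against 794 and 1460 CPM. Of the 10 leptomeningeal and fibroblast markers, 9 had a negative fold change in the BT media (median log2 -0.95) and 10 in the BA media (median -1.78). Of these, 2 passed in the BT media and 5 in the BA media, beside 2.35% and 0.807% of all genes tested. The macrophage and leukocyte sum in the BT media was 113 and 188 CPM in the ligated and 93.8 and 85.3 CPM in the sham libraries. Their part in the differences of the contractile genes was not tested, and sums over a marker list follow its most abundant genes.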

How the data were processed

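RNA was sequenced from 16 laser-captured samples of intima and media, amplified with the SMART-Seq v4 kit and tagged with Nextera adapters, and read as single reads on a NextSeq500. Per the labels and the methods of the study, the authors made the deposited count table with bcl2fastq 2.20.0.422, FastQC 0.11.5, MultiQC 1.5, STAR, SAMtools 1.9 and featureCounts 1.6.2, counting uniquely mapped reads on Ensembl genes of OryCun2.0. The counts are whole numbers per gene, not normalized, and the kit does not mark strand, whereas featureCounts was run with its reverse-stranded setting, which counts reads from a single strand of each gene. A minimum mapping quality was also set. Of 13788 symbols, 11925 had a count. The single entry without a symbol held 13.8% to 18.7% of each library and was left out of library sizes and tests.

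Counts were tested with edgeR 4.0.16 (quasi-likelihood F test in its older form, TMM) in R 4.3.3 over genes with a mean above 1 CPM in at least 1 group compared, and p-values were adjusted by Benjamini-Hochberg over all genes tested, with q below 0.05 as the threshold. A q-value here is that adjusted p. The SE given with an edgeR fold change is its absolute log2 value divided by the square root of the F statistic. Ligated and sham rabbits were compared unpaired, as 2 against 2, and layers, locations and the interactions with rabbit as a block. The pairing comes from the labels, which give the same rabbit, and the correlation of deviations within pairs of libraries ran from -0.031 to 0.409. DESeq2 1.42.0, 2 other scalings, no filter, a single fit over all libraries, no block and leaving out each rabbit were the alternatives. A log2 fold change is ligated minus sham, intima minus media or BT minus BA.

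The members, lists and tests were chosen with earlier results of these data known. All smooth muscle and cytoplasmic members were to be named, and of the others those that passed in any comparison. ACTN2, MYLK3, MYLK4, ACTA1, ACTC1, MYL2, MYL3 and MYH13 and the within-library ratios were chosen after their values were seen. Replicate libraries differed by more than counting error (chi-square per degree of freedom from 22.5 to 456), and floors and counting limits cover counting error only. Of the members, 37 matched the RefSeq table by symbol, which served only to find overlapping neighbours. Those whose span from start to end overlapped a neighbouring protein coding model numbered 6 (ACTN3, MYH7B, MYH15, MYL2, MYLK4 and SYNPO2), and exons were not compared. Sequences were not used here, and the values of a further member and of a further list are not reported here.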

Additional observations from a re-analysis of the deposited data

Results flagged for a closer look

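SYNPO2 and ACTA2 responded to ligation differently in the BT media and the BA media by the interaction test (edgeR quasi-likelihood test, q = 0.0394 and 0.0496). For SYNPO2 the difference, BT minus BA, was -2.18 log2 units, with both ligated libraries of the BT media (20.9 and 81.7 CPM) below both sham libraries (326 and 124 CPM) and overlapping groups in the BA media. For ACTA2 it was -0.76 log2 units, with both ligated libraries of the BA media (98848 and 113194 CPM) above both sham libraries (81631 and 70959 CPM) and overlapping groups in the BT media. Groups of 2 rabbits allow no check for outlying samples.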

How the results depend on the processing

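The counts of members called that moved most are given here; other scalings and filters moved counts by 1 call (RLE scaling gave 6 and not 5 between layers at the BT, no filter 3 and not 2 in the BA, and library size alone 3 and not 4 in the BT media). For ligation DESeq2 called 8 (BT media), 3 (BA media), 2 (BT intima) and 2 (BA intima), and it called 12 in the BA and 17 at the BT between layers, 1 between BT and BA media and 1 for the layer difference at the BT. Without the filter on low values there were 6 in the BA media, 8 in the BT media, 9 between layers at the BT, 2 between BT and BA media and 4 for the location difference in the media. No share of all genes is given beside the member counts of DESeq2, of the unfiltered test or of the fits without a rabbit. Those counts therefore have no background. A single fit over 16 libraries gave 1 in the BT intima and 0 in the BT media. Without the replicate block for the pairing by rabbit, 0 members passed between layers in the BA and at the BT and 0 for the location difference in the media, and no other call changed. Scaling by library size alone gave 0 for that location difference, and medians of -0.34 in the BA intima and -0.15 for the location difference in the media. It shifted the median of all genes by more than 0.1 in 7 of 12 comparisons, by at most 0.287, and the share of higher calls between BT and BA media from 33.3% to 50%. Leaving out each rabbit in turn, which leaves 1 library in a group assumed to vary like the others, gave 0 to 1 calls in the BA intima, 1 to 7 in the BT media, 0 to 5 between layers in the BA, 0 to 5 at the BT, 0 to 1 for the location difference in the intima and 1 to 3 in the media. The medians then ran from -0.65 to -0.028 in the BA intima, from -1.0 to 0.44 in the BT intima, from -0.73 to -0.22 for the location difference in the media, and from -0.14 to 0.91 in the BA and -0.54 to 0.68 at the BT for the layer difference. Single ligation fold changes were followed under each alternative for MYH11, ACTA2, MYL9, LMOD1, SMTN, CALD1, DES, VIM and members that passed, and not for the others. Among those followed, the ones that turned sign when a rabbit was left out were ACTA2 (-0.81 to 0.34), CALD1 (-0.48 to 0.82) and DES (-0.24 to 0.50) in the BA intima, of ACTA2 (-0.87 to 1.26), CALD1 (-0.28 to 0.65) and DES (-1.66 to 1.74) in the BT intima, and of MYL9 (-2.03 to 0.50) and VIM (-0.15 to 0.32) in the BA media, where VIM was also -0.064 with library size alone. The cause was not tested. Libraries of the media were the shallower, down to 2154863 counts, which limits the low striated members.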
